A study of Rattus norvegicus with 8 samples.

Results

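The genes described here encode the vascular endothelial growth factor (VEGF) and angiopoietin ligands and their receptors: Vegfa, Vegfb, Pgf, Kdr, Flt1, Nrp1, Angpt1, Angpt2, Tek and Tie1. They were taken by name, and every array probe whose accession led to 1 of these 10 symbols was used. This gave 14 of the 30350 probes on the arrays. Total RNA came from endothelial cells of Sprague-Dawley rats aged 8 to 10 weeks, taken 5 days after subcutaneous monocrotaline at 60 mg/kg (4 animals, 1 array each) or saline (4 animals, 1 array each). Monocrotaline is a plant alkaloid whose liver metabolite injures lung vessels, and the rat given it is a common model of pulmonary arterial hypertension. Whole lungs were digested with collagenase, and cells were held on magnetic beads coated with an antibody to CD31, the product of Pecam1, which platelets and some leukocytes also carry. RNA was extracted from the beads with no culture step. The study asked which endothelial genes are dysregulated early in this model.

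VEGF-A is a secreted growth factor that binds the receptor tyrosine kinases KDR and FLT1 on endothelial cells. KDR carries most of the signal for growth, survival and permeability, while FLT1 binds VEGF-A tightly and signals weakly, and neuropilin 1 acts as a co-receptor. Angiopoietin 1, made largely by mural cells, activates the receptor TEK (also called TIE2) and keeps vessels quiescent. Angiopoietin 2, stored in endothelial cells, can oppose it, and TIE1 modulates TEK. In the lung, alveolar epithelium is a known source of VEGF-A, and capillary endothelium carries much KDR.

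None of the probes passed the test between monocrotaline and saline. Of 14 probes, 13 were well above background on all 8 arrays and were tested, and they cover 9 of the 10 genes. Of these 13, 0 were called higher and 0 lower (limma, Benjamini-Hochberg adjusted p under 0.05 over all probes), where 1.36% of all 21652 probes tested were called higher and 0.0647% lower. At an unadjusted p under 0.05, 0 of the 13 were higher and 4 were lower, against 6.72% and 7.09% of all probes. In either direction 1.42% of all probes were called. In 0 of the 13 did the 4 monocrotaline arrays lie wholly above or wholly below the 4 saline arrays, which was seen in 4.67% (above) and 3.89% (below) of all probes, 8.56% together. The log2 fold changes of the 13 probes had a median of -0.325, with 10 negative and 3 positive, against a median of -0.02 and 53.7% negative over all probes. The 4 negative values at unadjusted p under 0.05 belonged to Tek, Tie1 and 2 of the Vegfa probes. Vegfa and Pgf had several probes each. With the brightest probe of each gene, 7 of the 9 genes were negative and 2 positive, with a median of -0.236, where 53.9% of all genes were negative. At an unadjusted p under 0.05, 2 of the 9 genes were lower and 0 higher, against 7.23% and 6.72% of all genes.

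**Figure D1:**
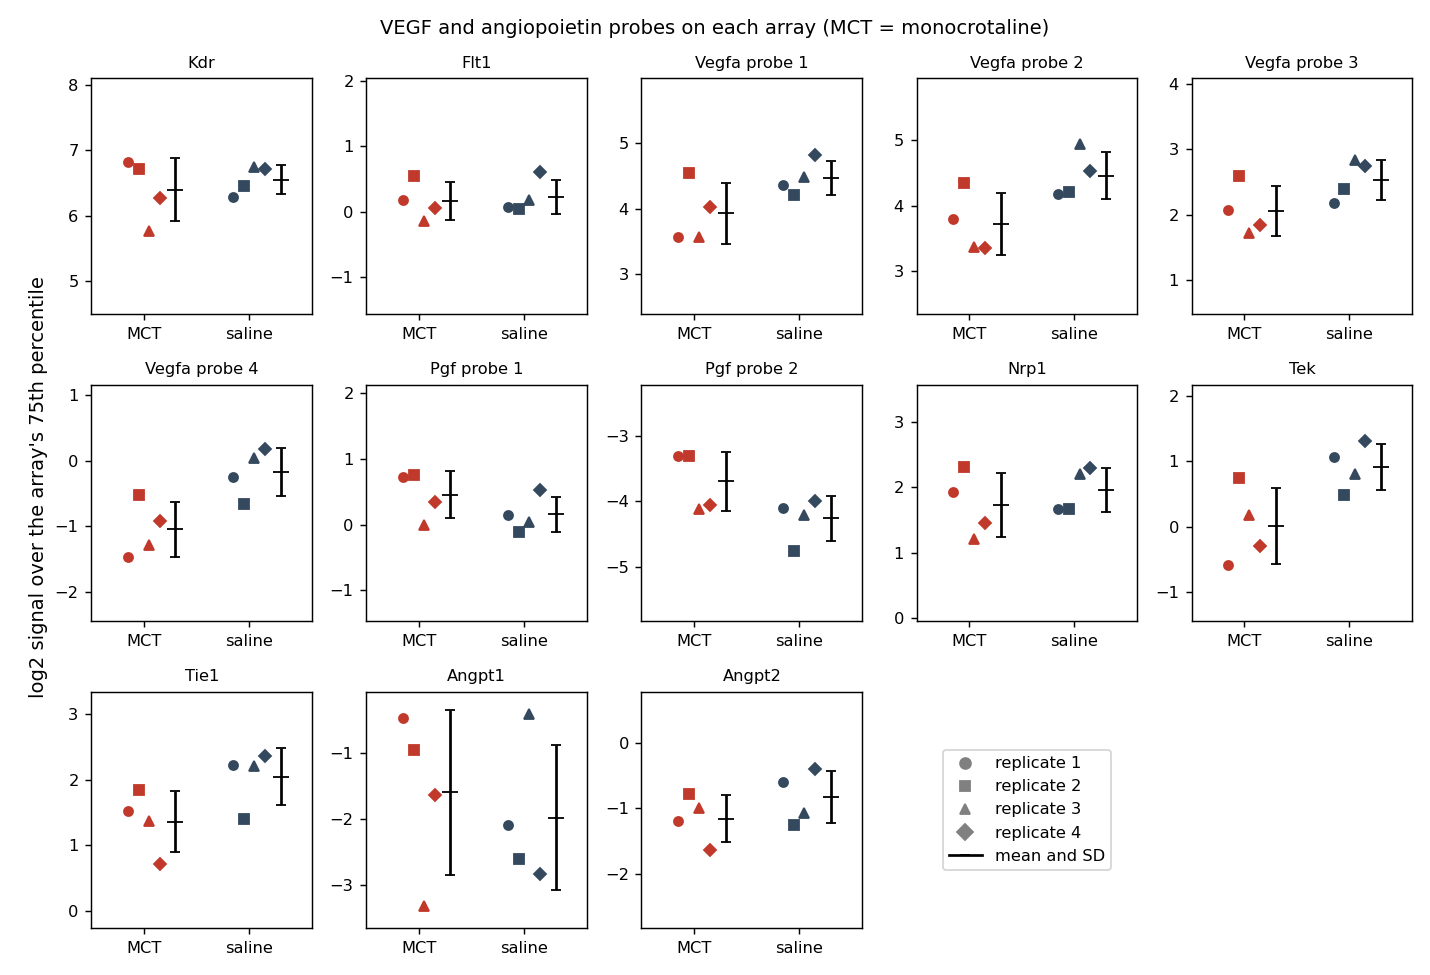
Log2 signal of the 13 tested probes on each array, relative to that array's 75th percentile, with monocrotaline (MCT, red) left of saline (blue); the marker shape gives the replicate and the bar the mean and SD of 4 arrays. Every panel spans 3.6 log2 units. The groups overlap in each panel, the Tek, Tie1 and Vegfa means are lower in monocrotaline, and Angpt1 has the widest spread.

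Levels below are log2 signals with each array's 75th percentile set to 0, and fold changes are differences of these levels, monocrotaline minus saline. Probes differ in how well they bind their target, so a level can be compared between arrays but not between probes.

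The cells carried endothelial transcripts, but the endothelial markers had lower means in the monocrotaline group as well. All 13 measured pan-endothelial markers outside the VEGF and angiopoietin genes had negative log2 fold changes, with a median of -0.585 (0 of 13 called, where 1.37% of the 19137 genes tested were called higher and 0.0627% lower), and all 13 were well above background on every array. Of the 13, 8 were lower at an unadjusted p under 0.05, against 7.23% of all genes. Their mean level minus the saline mean, called the pan-endothelial score here, ran from -0.89 to -0.15 on monocrotaline arrays and from -0.205 to 0.40 on saline arrays. Pecam1, the gene of the CD31 antigen used to select the cells, had a log2 fold change of -0.30 ± 0.19 (SE with 4 arrays a group, limma adjusted p = 0.507). In such bulk samples a smaller share of endothelial cells and less of a transcript per endothelial cell cannot be told apart. The 10 T and NK cell markers had scores of 0.97 to 1.88 on monocrotaline arrays and -0.82 to 0.36 on saline arrays, and 3 of 10 were called higher. The airway markers stood at 3.07 and 3.19 on monocrotaline replicates 1 and 3, against 0.47 and 0.74 on monocrotaline replicates 2 and 4 and -1.06 to 0.82 on saline arrays. Saline replicate 2 had the lowest scores for smooth muscle and pericyte (-1.15), fibroblast (-1.75) and alveolar type 2 markers (-2.01) of all 8 arrays. All monocrotaline arrays lay in row 2 of the slide and all saline arrays in row 1, so slide row and treatment cannot be told apart.

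Tek, the angiopoietin receptor, had the most negative log2 fold change of the tested probes. On monocrotaline replicates 1 to 4 its level was -0.58, 0.75, 0.18 and -0.29, against 1.07, 0.49, 0.81 and 1.31 on saline replicates 1 to 4. The groups overlapped through monocrotaline replicate 2, which lay above saline replicate 2 and below the other saline arrays. Tek averaged 0.01 ± 0.58 in monocrotaline and 0.92 ± 0.35 in saline (SD, n = 4 each), a log2 fold change of -0.905 ± 0.303 (SE; 95% confidence interval -1.60 to -0.21; limma adjusted p = 0.249). As a ratio this is 0.534 of the saline level, with an interval of 0.33 to 0.863. The difference was not called, and its fold change lay at the 1.85 percentile of all tested probes.

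Tie1, the receptor that pairs with TEK and has no known high-affinity angiopoietin ligand of its own, also had a lower mean. Its level was 1.53, 1.84, 1.37 and 0.72 on monocrotaline replicates 1 to 4, against 2.23, 1.41, 2.22 and 2.36 on saline replicates 1 to 4. Saline replicate 2 lay among the monocrotaline arrays, and the other 3 saline arrays lay above all of them. Tie1 averaged 1.36 ± 0.47 in monocrotaline and 2.05 ± 0.44 in saline (SD, n = 4 each), and the log2 fold change was -0.69 ± 0.29 (SE; 95% confidence interval -1.35 to -0.03; limma adjusted p = 0.342). That is a ratio of 0.621, with an interval of 0.393 to 0.98. Both receptors were highest on saline replicate 4, the array with the highest pan-endothelial score (0.40). Tie1 was lowest on monocrotaline replicate 4, the array with the lowest score (-0.89), and Tek was lowest on monocrotaline replicate 1, at a score of -0.55. Scaling every array to its pan-endothelial markers instead adds the same amount to the fold change of every probe and puts the median of all probes at 0.58. On that scale Tek was at -0.30 (adjusted p = 0.377) and Tie1 at -0.08, and values closer to 0 on the main scale turn their sign by that construction.

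The angiopoietins, the ligands of TEK, had mean differences of opposite sign, and neither was called. Angpt2 had levels of -1.20, -0.79, -0.995 and -1.64 on monocrotaline replicates 1 to 4, against -0.59, -1.25, -1.07 and -0.41 on saline replicates 1 to 4. Monocrotaline replicates 1, 2 and 3 lay inside the saline range and replicate 4 below it. Its log2 fold change was -0.33 ± 0.25 (SE with 4 arrays a group; 95% confidence interval -0.89 to 0.24; limma adjusted p = 0.60), and it was 0.28 when arrays were scaled to the pan-endothelial markers, which turns its sign.

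Angpt1 varied more between the arrays of a group than between the groups. It stood at -0.45, -0.95, -3.33 and -1.63 on monocrotaline replicates 1 to 4, against -2.09, -2.61, -0.39 and -2.83 on saline replicates 1 to 4. The highest array was saline replicate 3 and the lowest monocrotaline replicate 3. The log2 fold change of 0.39 ± 0.71 (SE with 4 arrays a group; limma adjusted p = 0.849) came with a 95% confidence interval from -1.24 to 2.02. This bounds the ratio only between 0.423 and 4.07. Within groups the SD of Angpt1 was 1.18, larger than in 97.6% of tested probes, while that of Angpt2 was 0.38. Left out of the fit, saline replicate 3 took the Angpt1 value to 0.92, monocrotaline replicate 3 took it to 0.97, and monocrotaline replicate 1 took it to 0.01.

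The 3 arrays with the highest Angpt1, monocrotaline replicates 1 and 2 and saline replicate 3, were also the 3 with the highest smooth muscle and pericyte scores (0.82, 1.19 and 1.03). Those scores, from 12 markers of mural cells, ran from -0.14 to 1.19 on monocrotaline arrays and from -1.15 to 1.03 on saline arrays. Of the 12 markers 11 had positive log2 fold changes and 0 were called, beside 1.37% of all genes called higher and 0.0627% lower. Their median was 0.565, and all but Cnn1 were well above background on every array. At the low end the match failed: Angpt1 was lowest on monocrotaline replicate 3 (mural score -0.14), and the mural score was lowest on saline replicate 2. A score from 9 lung capillary genes was also highest on monocrotaline replicates 1 and 2 and saline replicate 3 (0.17, 0.18 and 0.205). The log2 fold changes of its genes ran from -0.92 (Aplnr) to 1.13 (Fibin), so the score mixes genes of unlike pattern. That score was lowest on monocrotaline replicate 3 (-0.44), as Angpt1 was. The part of mural or other cells in the Angpt1 values was not tested. Angpt1 protein is also held by platelets, whose 7 markers had scores of -0.89 to 1.99 on monocrotaline arrays and -0.41 to 0.52 on saline arrays. The platelet score was lowest on monocrotaline replicate 3, as Angpt1 was, and within that group both were highest on replicate 1. Among saline arrays the platelet score was highest on replicate 1, while Angpt1 was highest on replicate 3.

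**Figure D2:**
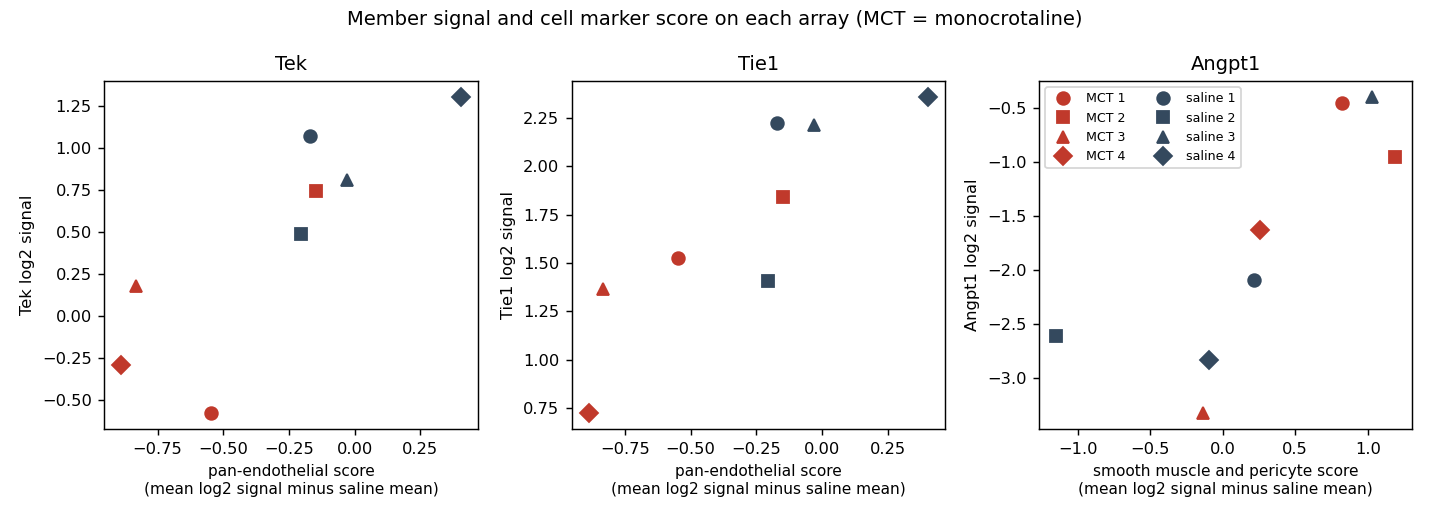
Level of Tek, Tie1 and Angpt1 on each array (log2 signal relative to the array's 75th percentile) against the score of pan-endothelial markers (Tek, Tie1) or of smooth muscle and pericyte markers (Angpt1). Red points are the 4 monocrotaline (MCT) arrays and blue points the 4 saline arrays. Saline replicate 4 is highest for Tek and Tie1 at a score of 0.40, and the 3 arrays with the highest Angpt1 have mural scores of 0.82 to 1.19. The array with the lowest Angpt1, monocrotaline replicate 3, has a mural score of -0.14, and the lowest mural score is on saline replicate 2 (-1.15).

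The balance of the 2 angiopoietins was examined within each array, where the scaling cancels. Angpt2 minus Angpt1 was -0.74, 0.16, 2.34 and -0.02 on monocrotaline replicates 1 to 4, against 1.498, 1.36, -0.68 and 2.43 on saline replicates 1 to 4. The difference between groups was -0.72 (two-sided exact permutation test over 70 regroupings, p = 0.429, adjusted p = 0.686 over 2 differences, where 0.0286 is the smallest unadjusted p possible). The 2 groups overlapped.

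Of the tested probes, those of the VEGF receptors Flt1, Kdr and Nrp1 had the values closest to 0. Kdr, the main signalling receptor, had levels of 6.83, 6.71, 5.77 and 6.28 on monocrotaline replicates 1 to 4, against 6.29, 6.45, 6.74 and 6.72 on saline replicates 1 to 4. Monocrotaline arrays were both the highest and the 2 lowest of the 8. No array was saturated at this probe, so its high signal was not clipped by the scanner. Kdr averaged 6.40 ± 0.48 in monocrotaline and 6.55 ± 0.22 in saline (SD, n = 4 each), and its log2 fold change was -0.15 ± 0.24 (SE; limma adjusted p = 0.826). The 95% confidence interval of the ratio was 0.61 to 1.32.

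Flt1, the receptor that also occurs as a soluble trap for VEGF-A, was at 0.19, 0.55, -0.14 and 0.06 on monocrotaline replicates 1 to 4, against 0.08, 0.04, 0.18 and 0.62 on saline replicates 1 to 4. The lowest array was a monocrotaline array, the highest a saline array, and the other 6 lay where the groups overlap. The log2 fold change was -0.07 ± 0.19 (SE with 4 arrays a group; limma adjusted p = 0.909), with an interval of the ratio from 0.704 to 1.29. The files do not say which of its transcripts the probe reads. The sign of the Flt1 value turned in 5 alternatives and that of Kdr in 2, and scaled to pan-endothelial markers Kdr was at 0.45 and Flt1 at 0.54, below or near the 0.58 of the median probe on that scale. Kdr minus Flt1 within an array differed by -0.09 between the groups (exact permutation p = 0.686, adjusted p = 0.686).

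Nrp1, the co-receptor, was read by 10 spots of 1 probe. Its level was 1.92, 2.31, 1.21 and 1.46 on monocrotaline replicates 1 to 4, against 1.67, 1.67, 2.21 and 2.29 on saline replicates 1 to 4. The highest and the lowest array were both monocrotaline arrays. The log2 fold change was -0.24 ± 0.27 (SE with 4 arrays a group; 95% confidence interval -0.85 to 0.38; limma adjusted p = 0.741). The median SD between its spots on 1 array was 0.065, which is smaller than the SD of 0.42 between the arrays of a group.

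Start-site sequences of 3 receptors and of Vegfa are shown to set the receptor with the flattest values (Flt1), the main signalling receptor (Kdr) and a receptor and a ligand with lower means (Tie1, Vegfa) side by side. They run from 250 bases before to 50 after the annotated start, 5′ to 3′ on the gene's strand, from RefSeq on build GRCr8. Capitals mark AGGAA, 1 form of the ETS core, and the GC box GGGCGG on either strand (TTCCT and CCGCCC in the reverse direction). These 2 motifs are known from endothelial and housekeeping promoters. Other forms of the ETS core, with GGAA after another base, were not searched and stay in lower case. No marked match overlaps another in these windows.
Tie1, chr5:137304932-137305231, minus strand: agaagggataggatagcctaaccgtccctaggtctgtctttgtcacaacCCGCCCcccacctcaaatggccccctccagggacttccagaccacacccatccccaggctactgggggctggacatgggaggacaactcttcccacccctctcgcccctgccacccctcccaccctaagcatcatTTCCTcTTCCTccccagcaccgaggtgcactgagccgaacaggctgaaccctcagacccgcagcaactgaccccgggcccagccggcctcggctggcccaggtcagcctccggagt
Kdr, chr14:32571813-32572112, plus strand: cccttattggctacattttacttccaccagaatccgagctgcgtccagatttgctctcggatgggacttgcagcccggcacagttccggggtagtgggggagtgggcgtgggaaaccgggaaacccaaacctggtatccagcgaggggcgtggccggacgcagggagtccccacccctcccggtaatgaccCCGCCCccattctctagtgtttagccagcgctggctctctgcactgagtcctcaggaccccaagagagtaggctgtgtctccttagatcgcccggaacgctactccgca
Flt1, chr12:12333180-12333479, plus strand: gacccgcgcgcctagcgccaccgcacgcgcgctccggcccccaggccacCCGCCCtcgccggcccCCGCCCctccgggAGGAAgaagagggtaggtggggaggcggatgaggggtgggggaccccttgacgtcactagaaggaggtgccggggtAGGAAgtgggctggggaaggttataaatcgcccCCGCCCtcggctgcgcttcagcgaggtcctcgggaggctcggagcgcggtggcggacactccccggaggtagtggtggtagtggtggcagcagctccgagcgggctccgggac
Vegfa, chr9:22452604-22452903, plus strand: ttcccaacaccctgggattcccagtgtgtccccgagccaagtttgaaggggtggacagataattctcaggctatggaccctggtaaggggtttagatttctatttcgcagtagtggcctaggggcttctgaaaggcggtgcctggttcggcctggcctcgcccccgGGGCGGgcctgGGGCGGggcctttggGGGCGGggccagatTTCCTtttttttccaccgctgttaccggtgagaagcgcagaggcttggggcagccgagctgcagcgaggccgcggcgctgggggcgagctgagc
Tie1 held 2 AGGAA matches and 1 GC box, Flt1 2 and 3, Vegfa 1 and 3, and Kdr 0 and 1. The Kdr window does hold GGAA after C, so its 0 is a count of AGGAA only. Of 33469 such windows, 67.3% held AGGAA and 33.1% the GC box, so holding either is common. The match is of letters only. Of the 10 genes 7 had an entry, Vegfa a second one with neither motif, and Tek, Angpt1 and Angpt2 none.

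Vegfa, the main ligand, was read by 4 probes that all had negative fold changes. The probes are numbered by their identifiers, A_64_P099886, A_64_P099891, A_64_P099893 and A_64_P155983, and their log2 fold changes were -0.54 ± 0.25, -0.74 ± 0.27, -0.48 ± 0.23 and -0.875 ± 0.257 (SE with 4 arrays a group). The limma adjusted p-values were 0.384, 0.281, 0.399 and 0.181, so no probe was called. On probe 1 the levels were 3.56, 4.55, 3.57 and 4.03 on monocrotaline replicates 1 to 4, against 4.37, 4.20, 4.48 and 4.81 on saline replicates 1 to 4. On probe 4 they were -1.47, -0.52, -1.28 and -0.91 on monocrotaline replicates 1 to 4, against -0.25, -0.66, 0.05 and 0.18 on saline replicates 1 to 4. On all 4 probes monocrotaline replicate 2 was the highest monocrotaline array and the overlap with saline came through it. The ratio on probe 4 was 0.545 with an interval of 0.363 to 0.819, and on probe 3, which had 1 spot only, 0.719 with an interval of 0.50 to 1.03.

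The 4 probes share the same RNA, so their common direction counts once. Probes 1 and 4 carry the accession of one Vegfa transcript and probes 2 and 3 that of another, and neither pair was uniformly lower than the other. Scaled to the pan-endothelial markers, probes 1 and 3 turned to 0.07 and 0.13 and probes 2 and 4 stayed negative at -0.14 and -0.27. Vegfa is also made by alveolar epithelium: the 7 type 1 markers had scores of -0.86 to 0.95 on monocrotaline arrays and -0.85 to 1.12 on saline arrays, highest in each group on monocrotaline replicate 2 and saline replicate 3. One of the 7, Cav1, is abundant in endothelium too. Among saline arrays Vegfa was highest on replicate 3 for probes 2 and 3 and on replicate 4 for probes 1 and 4. Monocrotaline replicate 2 also had the highest pan-endothelial (-0.15), mural (1.19) and type 2 (0.70) scores of its group. The part of epithelial RNA in the Vegfa signal was not tested.

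Pgf, placental growth factor, which binds FLT1 and not KDR, had positive log2 fold changes on both of its probes, and neither was called. Probe 1 (A_64_P120634) read 0.73, 0.76, -0.01 and 0.35 on monocrotaline replicates 1 to 4, against 0.15, -0.11, 0.04 and 0.53 on saline replicates 1 to 4. Probe 2 (A_64_P120640) read -3.31, -3.31, -4.12 and -4.05 on monocrotaline replicates 1 to 4, against -4.10, -4.75, -4.20 and -3.99 on saline replicates 1 to 4. On both probes monocrotaline replicates 1 and 2 lay above every saline array and replicates 3 and 4 among the saline arrays. The log2 fold changes were 0.30 ± 0.22 and 0.56 ± 0.26 (SE with 4 arrays a group; limma adjusted p = 0.568 and 0.38). With arrays scaled to the pan-endothelial markers, probe 2 was called at a log2 fold change of 1.17 (limma adjusted p = 0.029), where 3.0% of all probes were called higher and none lower, and probe 1 was not, at 0.91 (adjusted p = 0.0557). Set against the 0.58 of the median probe on that scale, probe 2 lay as far above it as on the main scale.

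Vegfb, the third VEGF ligand here and another FLT1 ligand, was not well above background on any of the 4 monocrotaline or 4 saline arrays. Its 1 probe therefore gives only an upper bound on both groups, no fold change is given, and the arrays say nothing of whether the gene differed.

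**Figure D3:**
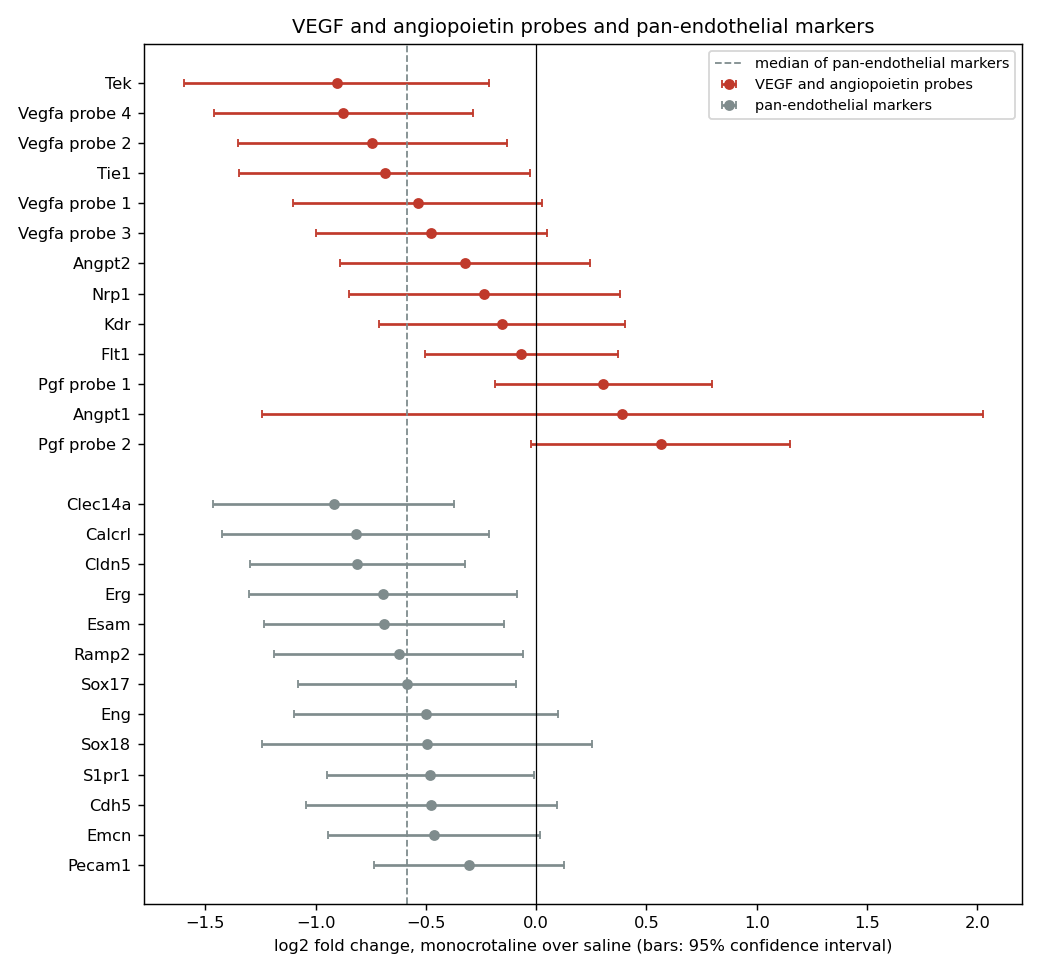
Log2 fold change of monocrotaline over saline with its 95% confidence interval for the 13 tested VEGF and angiopoietin probes (red) and 13 pan-endothelial markers (grey), 4 arrays per group. The dashed line is the markers' median of -0.585. Tek (-0.905) has the most negative value of the red points, Flt1 (-0.07) lies closest to 0, and the Pgf probes and Angpt1 lie above 0.

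Genes around the receptors were then counted from lists of the pathway. Of 28 other VEGF ligands, receptors and signalling genes, 1 was called higher and 0 lower, beside the 1.37% and 0.0627% of all genes, and their median log2 fold change was -0.09, against -0.03 over all genes. The called gene was Sphk1, the kinase that makes sphingosine 1-phosphate and acts downstream of KDR. Its level was -3.98, -4.84, -4.17 and -4.61 on monocrotaline replicates 1 to 4, against -5.99, -5.90, -5.51 and -5.63 on saline replicates 1 to 4. All 4 monocrotaline arrays lay above all 4 saline arrays, 1 of which was not well above background. Sphk1 rose by 1.36 ± 0.21 (log2 difference ± SE with 4 arrays a group, limma adjusted p = 0.025). Normexp background correction with percentile scaling gave 0.48 and no call, and the call was also lost when any array but monocrotaline replicate 2 was left out (adjusted p = 0.0522 to 0.0972). With the slide column, which same-numbered arrays share, as a block the value was 1.36 with an adjusted p of 0.113 by limma, and no probe of the array was called.

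The lymphatic branch of the family was looked at after the values were seen. Vegfc, a ligand of FLT4, had a log2 fold change of -0.03 ± 0.25 and Flt4, its receptor, -0.54 ± 0.31 (SE with 4 arrays a group, limma adjusted p = 0.977 and 0.472). Vegfd, another ligand of FLT4, was at 1.03 ± 1.07 (adjusted p = 0.714) and was well above background on 3 of 4 arrays in each group. Its SDs were 2.12 in monocrotaline and 1.34 in saline. Nrp2, a co-receptor, was at 0.10 ± 0.22 (adjusted p = 0.872). Sh2d2a, also picked after seeing its values, a T cell adaptor that also binds KDR, was at 0.78 ± 0.25 (adjusted p = 0.224).

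Of 7 other angiopoietin and Tie genes 0 were called, beside 1.37% of all genes called higher and 0.0627% lower. Their median was 0.09. Itgb1, an integrin subunit and the brightest of these probes, was at 0.09 ± 0.18 (log2 difference ± SE with 4 arrays a group, limma adjusted p = 0.87). Dok2, an adaptor bound by TEK that is best known from leukocytes, was picked after its values were seen: it stood at 1.39 ± 0.36 and missed the call (adjusted p = 0.137). All 4 of its monocrotaline arrays lay above all 4 saline arrays, which held for 4.56% of genes. It was highest on monocrotaline replicate 3, where the T and NK cell score was highest too (1.88), and lowest on saline replicate 4, where that score was lowest (-0.82). The neutrophil score was highest and lowest on the same arrays (2.45 and -0.59), and the red cell score was also highest on monocrotaline replicate 3 (2.85). The part of leukocytes in Dok2, Sh2d2a and Sphk1 was not tested.

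Of 18 genes known to follow VEGF receptor signalling, Flt1 and Pgf among them, 0 were called, against 1.37% of all genes higher and 0.0627% lower. Of the 18, 14 had negative values, against 53.9% of all genes, and 5 were lower at an unadjusted p under 0.05, against 7.23% of all genes. Their median was -0.21. Apln, the ligand of the apelin receptor and the brightest of them, was at 0.10 ± 0.29 (log2 difference ± SE with 4 arrays a group, limma adjusted p = 0.905). The genes with the most negative values were singled out after seeing them. Esm1, endocan, a secreted proteoglycan of sprouting endothelium, was at -1.11, 1.02, 0.82 and 0.16 on monocrotaline replicates 1 to 4, against 1.84, 1.63, 1.45 and 2.24 on saline replicates 1 to 4. It was the only one of the 18 whose groups did not overlap, which was seen downward in 3.99% of all genes, and its log2 fold change was -1.57 ± 0.44 (adjusted p = 0.165). Dll4, a Notch ligand of arterial and tip cells, was at -0.95 ± 0.38, Aplnr, the apelin receptor, at -0.92 ± 0.27, and Bmp2, a secreted morphogen, at -0.85 ± 0.24 (adjusted p = 0.328, 0.18 and 0.171).

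Genes of the hypoxia response, which controls Vegfa, had a median of -0.025 over 21 genes, with 10 positive, 11 negative and 0 called. Of all genes 1.37% were called higher and 0.0627% lower. Ldha, lactate dehydrogenase A and the brightest, was at 0.14 ± 0.13 (log2 difference ± SE with 4 arrays a group, limma adjusted p = 0.681). Hif1a was at 0.20 ± 0.17, while Epas1, the hypoxia-inducible factor subunit of endothelium, was at -0.59 ± 0.23 (adjusted p = 0.649 and 0.307), both named after their values were seen. The list's median lay at about that of all genes (-0.026).

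**Figure D4:**
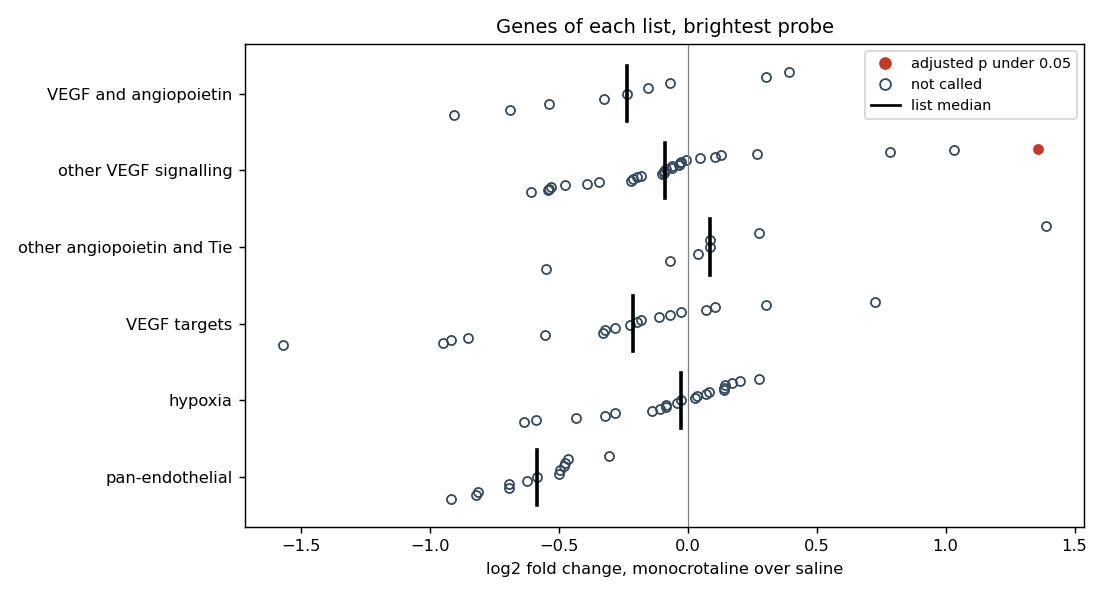
Log2 fold change of monocrotaline over saline for each gene (its brightest probe) in 6 lists, 4 arrays per group; a filled red point is a gene called by limma, and black bars are list medians. Sphk1 at 1.36 is the only filled point, the hypoxia list centres near 0 and the pan-endothelial list at -0.585.

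Genes whose levels followed Kdr and Angpt2 most closely over the 8 arrays were found among 11442 named genes by the root mean square difference of levels, each centred on its own mean. For Kdr these were C5h1orf216, Mfsd6 and Spred1, at 0.091, 0.091 and 0.094, where the median gene was at 0.436 and Kdr itself had an SD of 0.36. For Angpt2 they were Kifc3, Msx1 and Rps6ka2, at 0.109, 0.12 and 0.126, where the median gene was at 0.447 and Angpt2 itself had an SD of 0.39. None of these 6 genes was called, where 1.37% of all genes were called higher and 0.0627% lower. They were picked for values close to those of 2 genes that were not called, so this count adds nothing.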

How the data were processed

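Total RNA of the CD31-selected lung cells was read on 1-colour Cy3 arrays from 10 ng of RNA, per the labels. Per the file headers, scans were read by Feature Extraction 10.7.3.1 (Agilent), and limma 3.6.9 is named in the submitters' processing notes. Used here is the deposited processed signal, an intensity from which local background and a spatial trend had been removed array by array, with no scaling between arrays. Other columns give spot flags as 0 or 1, per the file headers. In the deposited table of values log2 was applied to values already in log2 units: 2 to the power of an entry equals the quantile-normalized log2 processed signal (median absolute difference 9.89e-10 over 62976 features), and it served as an alternative.

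Control spots (4259) and spots flagged as outliers were left out, the spots of a probe (1 to 10) were averaged, 17 of 30367 probes with no spot left on an array were dropped, and log2 signals were set to each array's 75th percentile. Each array had 58717 other spots, 70.8% to 77.7% of them well above background. Precision is set by having only 4 arrays in a group. Probes well above background on at least 4 of 8 arrays were fitted, each on its own, with limma 3.58.1 in R 4.3.3 (two-sided, moderated by empirical Bayes, no block), with Benjamini-Hochberg adjustment across 21652 probes. Lists were counted in a second fit on the brightest probe of each of 19137 genes. Accessions were named through RefSeq's GRCr8 annotation, where 18004 probes matched 15159 symbols. Genome coordinates of the arrays' own build are not used here.

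The genes and lists were chosen with earlier results of these data known. Named from each list were up to 4 called genes with the largest change or, with none called, the brightest gene. Genes outside this rule are marked where they appear. Counts describe the lists, and no list was tested as a set. Alternatives were 2 forms of normexp correction with an offset of 50, quantile, median and pan-endothelial scaling, the deposited table, 2 other filters, weights for arrays, limma with a trend or robustly, replicate number as a block, a fit per gene, and leaving out each array. Leaving out 2 monocrotaline arrays was added after seeing the data. The fit was tested on simulated data. There 46% of 100 probes changed by 1 log2 unit and 78% of 100 changed by 2 were called, and 9 of 133 calls were false. Changes of 1 log2 unit or less, and some of 2 log2 units, could thus be missed. The simulated noise was drawn for each probe alone, without variation shared between probes.

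Same-numbered arrays of the 2 groups shared a slide column, so a block for the number is also a block for the column. The numbers were not taken as pairs of animals, since the labels state no pairing. Deviations of same-numbered arrays from their group means correlated across genes at -0.015, -0.232, -0.326 and -0.197. Arrays with different numbers ranged from -0.342 to 0.388, so these correlations cannot show whether animals were paired. Scores are means of a list's levels minus the saline mean. Of the other lists, 8 of 11 cell cycle genes and 3 of 10 T and NK cell markers were called higher, beside 1.37% of all genes (0.0627% lower), and 0 of 9 fibroblast, 7 platelet, 7 type 2, 7 type 1, 7 airway, 9 macrophage, 6 neutrophil and 6 red cell markers were called, with medians of 1.78, 1.49, 1.06, 0.25, 0.37, -0.28, 2.03, 0.03, 0.94 and 1.09 in that order.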

Additional observations from a re-analysis of the deposited data

Results flagged for a closer look

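Among the monocrotaline and saline groups of 4 arrays of the 14 probes and 2 within-array differences (32 groups in all), 1 group had an array far from its other members by Dixon's criterion, which chance meets in about 1 of 20 groups. Tie1 on saline replicate 2 stood at a level of 1.41, against 2.22 on the nearest other saline array. Without that array the Tie1 log2 fold change was the most negative of those with an array left out, at -0.90, and it did not pass.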

How the results depend on the processing

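The count of 0 called VEGF and angiopoietin probes, higher or lower, held in all 22 alternatives but 1: scaling to the pan-endothelial markers gave 1 higher (Pgf probe 2). That scaling gave 649 probes higher and 0 lower over the array, against 294 and 14. The counts of other angiopoietin and Tie, VEGF target and hypoxia genes were 0 in all 22. Signs turned with pan-endothelial scaling for Kdr (0.45), Flt1 (0.54), Vegfa probes 1 and 3 (0.067 and 0.13), Nrp1 (0.37) and Angpt2 (0.28). They also turned for Flt1 with array weights (0.016), without saline replicate 4 (0.062) and without the 2 monocrotaline arrays with high airway markers (0.075), and for Flt1 (0.035), Kdr (0.056) and Kdr minus Flt1 (0.021) without monocrotaline replicate 3; the cause was not tested. Tek, Tie1, Pgf, Angpt1 and Vegfa probes 2 and 4 kept their sign throughout, Tek between -1.15 and -0.30. Angpt1 did so only narrowly, at 0.011 without monocrotaline replicate 1, and Tie1 was at -0.083 with pan-endothelial scaling. The 14 lower probes became 23 with normexp and percentile scaling, 24 with normexp and quantile normalization, 9 with no filter and 59 with array weights. The 1 called VEGF signalling gene became 0 with either normexp setting and with the filter on all 8 arrays, where Sphk1 is not tested. With a replicate block, which is also a block for the slide column, 0 probes were higher and 0 lower over the array and 0 VEGF signalling genes were called. With 1 array left out, 14 (without saline replicate 1) to 316 (without monocrotaline replicate 2) probes were higher, 0 to 108 lower, and 0 to 1 VEGF signalling genes were called; Angpt2 minus Angpt1 ranged from -1.35 to -0.29, Kdr minus Flt1 from -0.224 to 0.021, and Flt1 from -0.195 to 0.062. Without monocrotaline replicates 1 and 3, chosen after seeing the data, 62 probes were higher and 1 lower, with 0 VEGF signalling genes and 0 VEGF and angiopoietin probes. Signal over background limits Vegfb, which was measured on no array.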

Other observations

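Of 9 genes that separate the capillary cell types of the lung, known mainly from mouse, 0 were called, with 5 positive and 4 negative log2 fold changes. Of all genes 1.37% were called higher and 0.0627% lower. Plvap, of the endothelial diaphragms and the brightest, was at -0.53 ± 0.18 (log2 difference ± SE with 4 arrays a group, limma adjusted p = 0.265). Gpihbp1, which holds lipoprotein lipase on capillary endothelium, was at -0.87 ± 0.22 (adjusted p = 0.13) with all 4 monocrotaline arrays below all 4 saline arrays, a separation seen downward in 3.99% of genes. Car4 and Ednrb were at -0.05 and 0.17. The rest of the list was Fibin at 1.13, Apln at 0.10, Cd36 at 0.096, Chst1 at 0.006 and Aplnr at -0.92. The median of the list was 0.006. All but Plvap were named here after their values were seen. Neither the difference between genes nor a split of the list by cell type was tested.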
